A study of Homo sapiens with 9 samples.

Results

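WDR77, CLNS1A, RIOK1, COPRS, BTG1, TDRD3, SND1, SMNDC1, JMJD6 and NDUFAF7 are cofactors of arginine methyltransferases, readers of methylated arginine, or enzymes with a related function. These 10 genes were taken from a list of such genes without the methyltransferases themselves, and each was matched by symbol in the authors' deposited table. The deposited counts cover 60605 genes. All 10 were found, and all 10 are among the 20655 genes that passed the filter on low counts.

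Their transcripts were counted in RNA-seq libraries of KG-1a, a CD34-expressing human acute myeloid leukaemia cell line. The groups were PRMT2 knockout clone 2 (KO clone 2), PRMT2 knockout clone 1 (KO clone 1) and KG-1a cells with wild-type PRMT2 (WT), with 3 libraries each. Both knockouts were made with CRISPR/Cas9, and no group received a drug. Each knockout group is 1 clone, and the labels leave unstated if WT cells are a clone and if replicates were separate cultures. The p-values therefore measure the spread between libraries, which may be technical, and not the spread between clones.

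Arginine methyltransferases transfer methyl groups from S-adenosylmethionine to arginine side chains. PRMT5 makes symmetric dimethylarginine and works as a complex with WDR77, to which an adaptor such as CLNS1A, RIOK1 or COPRS brings particular substrates. PRMT1 makes most asymmetric dimethylarginine and can bind BTG1. Proteins with a Tudor domain, such as TDRD3, SND1 and SMNDC1, carry an aromatic cage that can bind methylated arginine. JMJD6 is a 2-oxoglutarate-dependent oxygenase that has been described as an arginine demethylase and as a lysine hydroxylase, and NDUFAF7 is a mitochondrial arginine methyltransferase needed for the assembly of respiratory complex I.

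The PRMT5 adaptors share a short docking motif, and their coding sequences around it are shown because this is the feature by which they take turns on the same enzyme. Each run is given 5′ to 3′ on the coding strand (GRCh38 sequence, GENCODE 44 coding exons). The capitals mark the codons of a motif made of glycine, glutamine, phenylalanine, an acidic residue, aspartate, alanine and another acidic residue, with up to 4 codons on each side.
CLNS1A: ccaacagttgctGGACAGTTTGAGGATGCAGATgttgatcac
COPRS: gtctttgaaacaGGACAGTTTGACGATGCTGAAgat
RIOK1: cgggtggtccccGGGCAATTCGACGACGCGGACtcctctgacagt
The CLNS1A stretch lies at chr11:77619631-77619672 on the minus strand and encodes motif residues 228 to 234 of a protein of 237 residues. The COPRS stretch lies at chr17:31852142-31852177 on the minus strand and encodes residues 177 to 183 of 184, so both motifs sit at the C-terminal end. The RIOK1 stretch lies on the plus strand across 2 exons, between chr6:7390030 and 7393099, and encodes residues 14 to 20 of 568, at the N-terminal end. Of 20046 canonical coding sequences searched in their reading frame, 3 held this motif (0.015%), and all 3 belong to the genes described here. The pattern was set to the motif that these 3 adaptors share, so their matching was fixed in advance. The search therefore shows only that no other sequence searched held the pattern. A match of residues is a description of the sequence and not a measurement of binding.

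Libraries held 28006342 to 43149410 counted read pairs. PRMT2 itself had 21.4, 21.1 and 21.2 CPM (counts per 1e6 scaled counts) in KO clone 2, 21.3, 20.2 and 20.7 CPM in KO clone 1, and 39.4, 39.0 and 39.8 CPM in WT. Every knockout library was thus lower than every WT library, as the labels have it. PRMT2 RNA remained at 0.54 of the WT level in KO clone 2 and at 0.53 in KO clone 1, and RNA counts do not measure the protein. The KG-1a markers CD34, PTPRC, SPN and CD7 were present in all 9 libraries, CD34 at 612 to 791 CPM. Of the markers of other cell types, HBB had 0 counts in all 9, and EPCAM, CDH1 and KRT19 were at or below 0.0614 CPM in every library. KO clone 1 replicate 1 stood apart in composition, with 13.33% multimapping pairs, against 3.87% to 4.51% elsewhere, and with 27300 CPM of mitochondrial ribosomal RNA, against 29.9 to 92.9 CPM. Values without it are given where they differ in kind.

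The 10 genes differed among themselves in level more than any of them differed between groups. Levels between genes are compared per kilobase of merged exons. CLNS1A was the highest in every group, at 37.4 CPM per kilobase in KO clone 2, 38.2 in KO clone 1 and 32.6 in WT. That level in WT was above those of 92.28% of the 12754 protein-coding genes that passed the filter on low counts. JMJD6 was the lowest in each group, at 4.97, 5.07 and 4.97 CPM per kilobase, near the median of those 12754 genes. Between them, the WT order ran BTG1 (24.5), RIOK1 (20.9), SND1 (18.9), WDR77 (10.7), SMNDC1 (8.56), COPRS (7.20), NDUFAF7 (5.85) and TDRD3 (5.37 CPM per kilobase). In WT only NDUFAF7 and TDRD3, and TDRD3 and JMJD6, overlapped with their neighbour in libraries. In KO clone 2 the order was the same, and BTG1 overlapped with RIOK1 there, as did TDRD3 with JMJD6. In KO clone 1 BTG1 stood at 16.96 CPM per kilobase, below RIOK1 (19.6) and SND1 (19.1), and COPRS overlapped with NDUFAF7 and with TDRD3. Counts of these genes were 196 to 7343 per library, and the coefficient of variation over 3 libraries of a group was 0.616% to 16.95%, with a median of 3.5%.

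**Figure D1:**
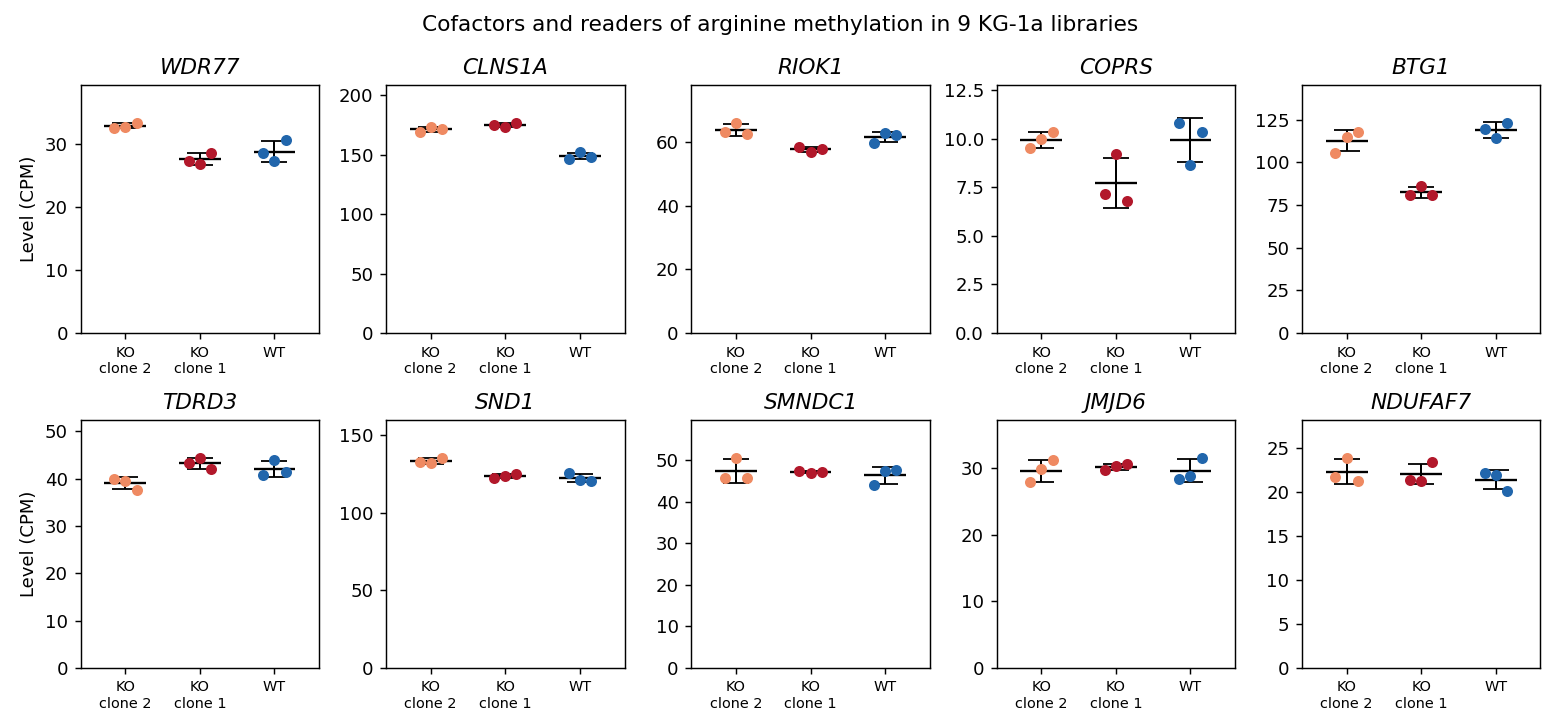
Level of each of the 10 genes in CPM (vertical axes, from 0) in KO clone 2, KO clone 1 and WT. Each point is 1 library, the long bar is the mean and the short bars are 1 SD (n = 3). CLNS1A is higher in both clones than in WT, BTG1 is low in KO clone 1 alone, and WDR77 is high in KO clone 2 alone.

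Below, a gene passes when its Benjamini-Hochberg adjusted p over all 20655 genes is under 0.05 in the edgeR quasi-likelihood F test, and the fold minimum is an absolute log2 fold change of 1. Against WT, 3 of the 10 genes passed in KO clone 2, where 30.5% of all genes tested passed, and all 3 were higher, against 14.4% of all genes higher and 16.1% lower. In KO clone 1, 3 passed, against a background of 36.2%, with 1 higher (background 17.4%) and 2 lower (background 18.8%). For the mean of both clones, 3 passed, against 35.3%. Among the 8370 genes tested that were as abundant as these 10 (mean of 9.20 to 165 CPM), 40.3% passed in KO clone 2 and 48.5% in KO clone 1. The count of 3 in 10 is therefore near or below the background in both clones. The libraries did not overlap with WT for 4 of the 10 in KO clone 2 (40.5% of all genes), for 3 in KO clone 1 (44.5%) and for 1 when all 6 knockout libraries were set against WT (24.9%). CLNS1A was the only one of the 10 that passed in both clones in the same direction, which 19.6% of all genes tested did.

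No gene of the 10 reached the fold minimum. Past it in the edgeR test were 0 of 10 in KO clone 2, where 5.96% of all genes were, 0 of 10 in KO clone 1, where 7.58% were, and 0 of 10 in the mean of both, where 6.53% were. Among genes of the same abundance these shares were 2.2%, 2.75% and 2.31%, so a count of 0 in 10 is near that background. At an unadjusted p under 0.05 and with no fold minimum there were 5 genes in KO clone 2, 4 in KO clone 1 and 3 in the mean of both. DESeq2 and limma voom also called 0 with the fold minimum, and without it each called 3 in each clone and 2 in the mean. The 95% intervals of all 10 genes in both clones lay inside a log2 fold change of 1 in either direction, the lowest bound being -0.61 (BTG1 in KO clone 1). The median absolute log2 fold change of the 10 was 0.07 in KO clone 2 and 0.05 in KO clone 1, against 0.16 and 0.19 over all genes tested and 0.10 and 0.13 over genes of the same abundance. Between the clones more of them differed. In KO clone 2 against KO clone 1, 6 of 10 passed, where 25.9% of all genes tested passed and 38.4% of genes of the same abundance did. Of these 6, 5 were higher in KO clone 2 (background 13.4%) and 1 was lower (background 12.6%). In the fits that left out 1 library, 4 to 6 of the 10 passed between the clones. The clones' libraries did not overlap for 6 of the 10, against 37.7% of all genes and 50% of genes of the same abundance. Past the fold minimum between the clones were 0 of 10, against 2.82% of all genes and 0.729% of those of the same abundance.

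**Figure D2:**
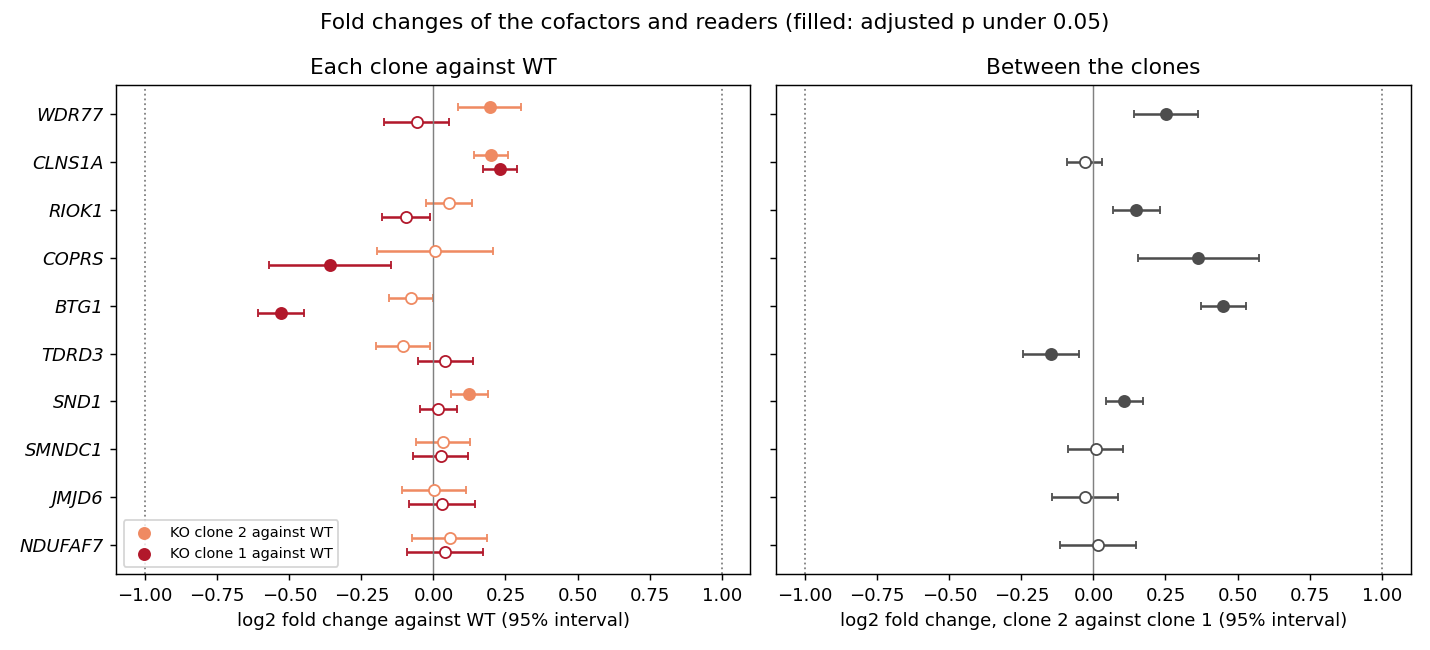
log2 fold change (horizontal axes) of each gene against WT for KO clone 2 and KO clone 1 (left) and for KO clone 2 against KO clone 1 (right), with 95% intervals from the edgeR fit over 9 libraries. Filled points have an adjusted p under 0.05, and dotted lines mark the fold minimum of 1, which no interval reaches. Only CLNS1A is filled for both clones on the left, and 6 genes are filled on the right.

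CLNS1A, also known as pICln, is the adaptor that brings Sm proteins of the spliceosome to PRMT5 and its RNA rose in both knockouts. The gene (ENSG00000074201) lies on chromosome 11, 77514936 to 77637794, minus strand, and its docking motif is the first of those printed above. It had 169, 174 and 172 CPM in KO clone 2, 175, 173 and 177 CPM in KO clone 1, and 147, 152 and 149 CPM in WT. All 6 knockout libraries were above the highest WT library, and the clones overlapped with each other. In bulk RNA, more cells with a transcript and more transcript per cell cannot be told apart. The log2 fold change was 0.20 in KO clone 2 (SE 0.030, adjusted p = 6.14e-07) and 0.23 in KO clone 1 (SE 0.030, adjusted p = 2.67e-08) in the edgeR test. For the mean of both clones it was 0.22, which is 16.1% above WT (adjusted p = 5.02e-09), and the clones differed by -0.03 with a 95% interval of -0.09 to 0.03. The authors' deposited table sets the 6 knockout libraries together against WT with DESeq2, and its raw counts were taken without regard to strand. Its DESeq2 result for CLNS1A is a log2 fold change of 0.22 with an adjusted p of 3.6e-09. The only annotated processed copy, CLNS1AP1, had 0 counts in all 9 libraries.

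RIOK1, an atypical protein kinase of small ribosomal subunit maturation that competes with CLNS1A for PRMT5 and brings nucleolin to it, did not follow CLNS1A. The gene (ENSG00000124784) lies on chromosome 6, 7389793 to 7418037, plus strand. It had 63.2, 66.0 and 62.4 CPM in KO clone 2, 58.3, 56.9 and 57.7 CPM in KO clone 1, and 59.7, 62.9 and 62.1 CPM in WT. KO clone 2 overlapped with WT, while all KO clone 1 libraries were below WT. Neither difference from WT passed in the edgeR test, at 0.05 in KO clone 2 (adjusted p = 0.354) and -0.10 in KO clone 1 (adjusted p = 0.0641). Without WT replicate 1 the KO clone 1 value was -0.12 with an adjusted p of 0.0374. RIOK1 was 0.15 higher in KO clone 2 than in KO clone 1 on the log2 scale (SE 0.040, adjusted p = 0.00463).

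The ratio of CLNS1A to RIOK1 counts within a library needs no scaling between libraries. It was 2.67, 2.63 and 2.75 in KO clone 2, 3.00, 3.05 and 3.07 in KO clone 1, and 2.46, 2.42 and 2.39 in WT. The ratios of the 3 groups did not overlap, with the highest in KO clone 1, where CLNS1A was higher and RIOK1 stood at its lowest. An exact two-sided permutation test of 3 libraries against 3 cannot give a p below 0.1, so these ratios are given as values.

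COPRS, a histone-binding adaptor that directs PRMT5 towards histone H4, was the least abundant adaptor. It was the most variable of the 10 genes in KO clone 1 and in WT, but not in KO clone 2. The gene (ENSG00000172301) lies on chromosome 17, 31851871 to 31859291, minus strand. It had 9.53, 9.98 and 10.4 CPM in KO clone 2, 7.17, 9.22 and 6.78 CPM in KO clone 1, and 10.8, 8.65 and 10.3 CPM in WT. KO clone 1 passed as lower than WT although its second library lay above the lowest WT library. The log2 fold change was -0.36 in KO clone 1 (SE 0.104, adjusted p = 0.00567) and 0.01 in KO clone 2 (adjusted p = 0.975), and KO clone 2 was 0.36 higher than KO clone 1 (SE 0.104, adjusted p = 0.00684). The KO clone 1 call was lost without KO clone 1 replicate 3 (-0.27, adjusted p = 0.0740) and without WT replicate 1 (-0.29, adjusted p = 0.0582). The call between the clones was lost without KO clone 1 replicate 3 (0.27, adjusted p = 0.0889).

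WDR77, the WD-repeat protein that forms a constant part of the PRMT5 complex, rose in KO clone 2. The gene (ENSG00000116455) lies on chromosome 1, 111439890 to 111449256, minus strand. It had 32.5, 32.7 and 33.3 CPM in KO clone 2, 27.3, 26.8 and 28.6 CPM in KO clone 1, and 28.5, 27.3 and 30.6 CPM in WT. The KO clone 2 libraries were above all others, and KO clone 1 overlapped with WT. The log2 fold change was 0.19 in KO clone 2 (SE 0.054, adjusted p = 0.00436), -0.06 in KO clone 1 (adjusted p = 0.468) and 0.25 between the clones (SE 0.055, adjusted p = 0.00043). Of its exon bases, 25.1% are shared on the same strand with a gene known only as ENSG00000243960, which had 1.34 to 2.56 CPM over all libraries.

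PRMT5 RNA, the catalytic partner of WDR77, was likewise higher in KO clone 2. PRMT5 was 0.22 higher in KO clone 2 than in WT (adjusted p = 8.89e-06) and stood at 0.01 in KO clone 1 (adjusted p = 0.889). The ratio of WDR77 to PRMT5 counts was 0.402 ± 0.00665 in KO clone 2, 0.391 ± 0.0186 in KO clone 1 and 0.411 ± 0.0359 in WT (SD, n = 3), and all groups overlapped. The ratio of CLNS1A to PRMT5 was 2.09 ± 0.0193 in KO clone 2, 2.48 ± 0.0627 in KO clone 1 and 2.13 ± 0.125 in WT (SD, n = 3). Here KO clone 1 lay above the other groups, which overlapped with each other.

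**Figure D3:**
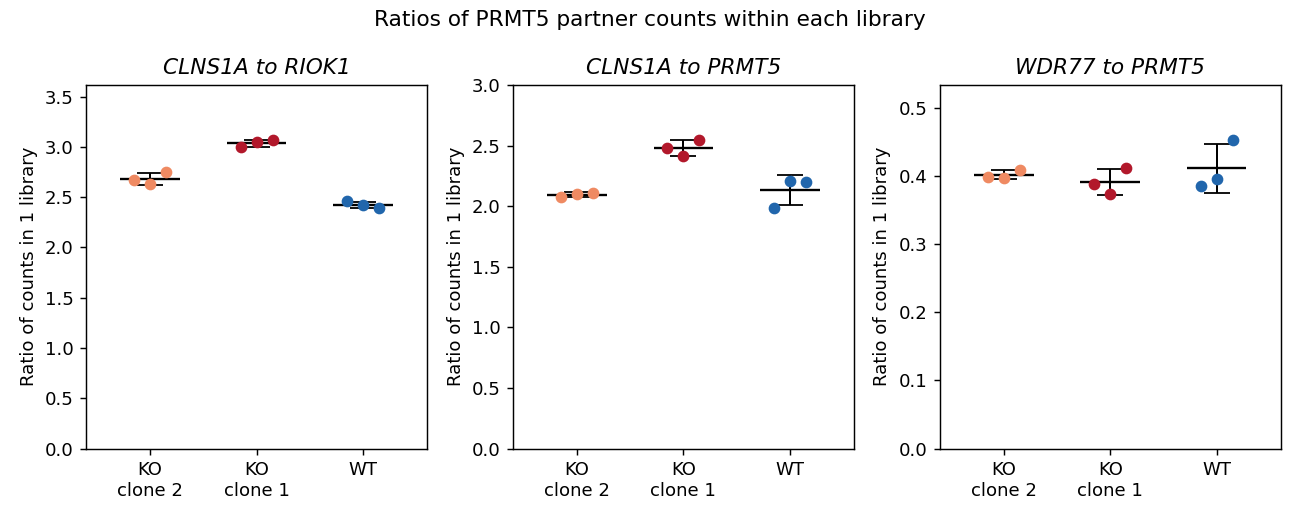
Ratio of read counts within each library (vertical axes, from 0, no unit) for CLNS1A to RIOK1, CLNS1A to PRMT5 and WDR77 to PRMT5 in KO clone 2, KO clone 1 and WT. Each point is 1 library, the long bar is the mean and the short bars are 1 SD (n = 3). CLNS1A to RIOK1 separates all 3 groups, with means of 2.68, 3.04 and 2.42, and WDR77 to PRMT5 separates none.

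Sm proteins, which CLNS1A presents to PRMT5, and the SMN complex, which loads them onto small nuclear RNAs, were examined beside CLNS1A. Of 11 Sm and Sm-like genes tested, 2 were higher (background 14.4%) and 1 was lower (16.1%) in KO clone 2, and 2 were lower in KO clone 1 (18.8%), counts near the background. One gene fell in both: SNRPN, an Sm protein gene of an imprinted region, had 0 counts in all 6 knockout libraries, against 109, 139 and 118 counts in WT. Set against 3 counts over a group, SNRPN was at least 133-fold lower in KO clone 2 and at least 101-fold lower in KO clone 1. SNRPB, the related core Sm gene, was 0.24 higher in KO clone 2 than in WT (adjusted p = 8e-05) and stood at 0.09 in KO clone 1 (adjusted p = 0.135). Of 8 SMN complex genes, 3 were higher and 1 was lower in KO clone 2, where 30.5% of all genes passed, and 1 was higher and 1 was lower in KO clone 1, where 36.2% did. GEMIN5, which recognises small nuclear RNAs, was 0.34 lower in KO clone 1 than in WT (adjusted p = 2.21e-08) and 0.44 higher in KO clone 2 than in KO clone 1 (adjusted p = 1.53e-10). The medians of the Sm list were 0.08 in KO clone 2 and -0.04 in KO clone 1, and those of the SMN complex 0.13 and -0.02, where the median over all genes was 0.00 in both.

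BTG1, an antiproliferative protein that binds PRMT1 and the CCR4-NOT deadenylase, had the largest fold change of the 10 genes in these tests, and it fell in KO clone 1. The gene (ENSG00000133639) lies on chromosome 12, 92140278 to 92145846, minus strand. It had 106, 115 and 118 CPM in KO clone 2, 80.6, 85.9 and 80.6 CPM in KO clone 1, and 120, 114 and 123 CPM in WT. The KO clone 1 libraries were below all 6 others, and KO clone 2 overlapped with WT. The log2 fold change in KO clone 1 was -0.53 (SE 0.039, adjusted p = 1.26e-14), a level 30.7% below WT, and it was -0.52 without the library that stood apart (adjusted p = 1.09e-12). In KO clone 2 it was -0.08 (SE 0.038, adjusted p = 0.118), with a 95% interval of -0.16 to -0.0023, and the adjusted p was 0.048 without KO clone 2 replicate 3 (-0.11) and 0.0368 without WT replicate 2 (-0.11).

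The clones differed in BTG1 by 0.45 (SE 0.039, adjusted p = 4.48e-12), the largest difference between them among the 10 genes. The mean of both clones, -0.30 (adjusted p = 4.62e-10), therefore stands for neither clone, and it did not pass when the clones were fitted as 1 group (-0.29, adjusted p = 0.214). The authors' deposited DESeq2 table, whose raw counts disregard strand, gives BTG1 -0.26 with an adjusted p of 0.0948. Of its exon bases, 10.4% are shared on the same strand with LINC01619, at 0.512 to 1.47 CPM over all libraries. Its processed copy BTG1P1 was at 1.80 ± 0.247 CPM in KO clone 2, 2.44 ± 0.145 CPM in KO clone 1 and 1.47 ± 0.215 CPM in WT (SD, n = 3), small beside BTG1 and highest where BTG1 was lowest.

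BTG2, the closest relative of BTG1, had the same order of groups. It had 100, 100 and 102 CPM in KO clone 2, 71.6, 68.3 and 71.0 CPM in KO clone 1, and 114, 111 and 108 CPM in WT, with no overlap between any groups. It was 0.14 lower in KO clone 2 (adjusted p = 0.00101) and 0.66 lower in KO clone 1 (adjusted p = 2.17e-19) than in WT, and the clones differed by 0.52 (adjusted p = 2.14e-15). TOB2, another member of that family, went the other way, 0.37 higher in KO clone 2 (adjusted p = 2.21e-09) and 0.23 higher in KO clone 1 (adjusted p = 2.81e-05). Of the 5 genes tested in the list of this family and its deadenylase partners, 1 was higher and 1 lower in KO clone 2 (30.5% of all genes passed), and 2 were higher and 2 lower in KO clone 1 (36.2%), while counts of BTG4 and TOB1 were too low to test.

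PRMT1, the enzyme that BTG1 binds, was 0.27 lower in KO clone 1 than in WT (adjusted p = 1.49e-08) and at -0.02 in KO clone 2 (adjusted p = 0.787). The ratio of BTG1 to PRMT1 counts was 0.437, 0.481 and 0.477 in KO clone 2, 0.394, 0.422 and 0.400 in KO clone 1, and 0.469, 0.497 and 0.492 in WT. KO clone 1 was below the others in every library, so that BTG1 fell further than PRMT1 in that clone. Among 13 PRMT1 substrates rich in arginine and glycine repeats, 7 were higher in KO clone 2 (background 14.4%) and 3 were lower in KO clone 1, near the background of 18.8%, with medians of 0.09 and -0.01. Abundant genes passed more often: of the 8370 genes with a mean of 9.20 to 165 CPM, 40.3% passed in KO clone 2 in either direction. None of these list genes, whose values lay between -0.21 and 0.23, reached the fold minimum in either clone.

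SND1, a Tudor-domain protein with staphylococcal nuclease-like repeats that binds symmetric dimethylarginine and acts in splicing and RNA-induced silencing, rose slightly in KO clone 2. The gene (ENSG00000197157) lies on chromosome 7, 127652194 to 128092609, plus strand. It had 133, 132 and 136 CPM in KO clone 2, 123, 124 and 125 CPM in KO clone 1, and 125, 121 and 121 CPM in WT. KO clone 2 was above all others, and KO clone 1 overlapped with WT. The log2 fold change was 0.12 in KO clone 2 (SE 0.032, adjusted p = 0.00188), 9.0% above WT, and 0.02 in KO clone 1 (adjusted p = 0.734). KO clone 2 was 0.11 above KO clone 1 (adjusted p = 0.00971), or 0.09 with an adjusted p of 0.0672 without KO clone 2 replicate 3. The mean of both clones was 0.07 (adjusted p = 0.0425) and did not pass with DESeq2 (adjusted p = 0.067) or limma voom (adjusted p = 0.0574). Nor did this mean pass in edgeR with at least 1 CPM in 3 libraries (adjusted p = 0.0647), without regard to strand (adjusted p = 0.0706) or with no filter on low counts (adjusted p = 0.112). It also did not pass in 7 of the 9 fits that left out 1 library, all except those without KO clone 2 replicate 2 or WT replicate 1, with adjusted p-values of 0.0526 to 0.166. On the same strand, 7.4% of its exon bases are shared with SND1-IT1, at 3.79 to 5.03 CPM.

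TDRD3, whose Tudor domain binds asymmetric dimethylarginine on histones and on RNA polymerase II and which works with topoisomerase TOP3B, was lower in KO clone 2 than in KO clone 1. The gene (ENSG00000083544) lies on chromosome 13, 60396457 to 60573878, plus strand. It had 39.9, 39.6 and 37.7 CPM in KO clone 2, 43.3, 44.5 and 42.1 CPM in KO clone 1, and 40.7, 43.9 and 41.5 CPM in WT. All KO clone 2 libraries were below WT, yet the difference did not pass, at -0.11 (SE 0.047, adjusted p = 0.0839), and KO clone 1 stood at 0.04 (adjusted p = 0.553). KO clone 2 against KO clone 1 was -0.15 (SE 0.047, adjusted p = 0.0173). That call was lost without KO clone 1 replicate 2 (-0.13, adjusted p = 0.0853) and without KO clone 2 replicate 3 (-0.12, adjusted p = 0.11). It was the only one of the 6 differences between the clones in which KO clone 2 was the lower.

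Of 4 TDRD3 partners examined, 1 was higher and 1 was lower in KO clone 2 (30.5% of all genes passed), and 1 was higher in KO clone 1 (36.2%). FXR1, an RNA-binding partner of TDRD3, was the one that passed in both clones in the same direction, at 0.09 in KO clone 2 (adjusted p = 0.0213) and 0.12 in KO clone 1 (adjusted p = 0.00233). The KO clone 2 call was lost without KO clone 2 replicate 2 (0.09, adjusted p = 0.0743), KO clone 2 replicate 3 (0.09, adjusted p = 0.0677) or WT replicate 1 (0.08, adjusted p = 0.0853), and without regard to strand (0.08, adjusted p = 0.0535).

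SMNDC1, also known as SPF30, is a splicing factor whose Tudor domain resembles that of SMN, and no difference in it passed. The gene (ENSG00000119953) lies on chromosome 10, 110290730 to 110304938, minus strand. It had 45.7, 50.6 and 45.8 CPM in KO clone 2, 47.3, 46.8 and 47.1 CPM in KO clone 1, and 43.9, 47.3 and 47.6 CPM in WT, and the 3 groups overlapped. The log2 fold change was 0.03 in KO clone 2 (95% interval -0.06 to 0.13, adjusted p = 0.665) and 0.02 in KO clone 1 (95% interval -0.07 to 0.12, adjusted p = 0.738).

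Among other Tudor-domain readers of methylated arginine, larger fold changes occurred in some genes of low level. Of 9 tested, 2 were higher (background 14.4%) and 3 were lower (16.1%) in KO clone 2, and 1 was higher (17.4%) and 4 were lower (18.8%) in KO clone 1, while TDRD1, TDRD5 and TDRD6 had counts too low to test. Many Tudor proteins of this list are known from the piRNA pathway of germ cells. TDRKH, which links PIWI proteins to mitochondria there, had 1.89, 2.54 and 2.29 CPM in KO clone 2, 1.83, 2.42 and 2.33 CPM in KO clone 1, and 4.80, 5.10 and 4.59 CPM in WT. Its log2 fold changes of -1.11 in KO clone 2 (adjusted p = 2.94e-08) and -1.13 in KO clone 1 (adjusted p = 4.43e-08) passed the fold minimum in both clones. TDRD9, a putative RNA helicase, had 11.9, 11.1 and 10.9 CPM in KO clone 2, 1.65, 1.96 and 2.55 CPM in KO clone 1, and 7.38, 7.63 and 7.61 CPM in WT. It was thus 0.58 higher than WT in KO clone 2 (adjusted p = 6.73e-06), 1.87 lower in KO clone 1 (adjusted p = 5.22e-16), and 2.45 apart between the clones (adjusted p = 1.01e-19). RNF17 was lower in both clones but had at most 4 counts in any knockout library and 10 to 21 in WT, and the KO clone 2 call was lost when reads were counted without regard to strand (-0.68, adjusted p = 0.122). SMN2 passed as higher in both clones, at 9.71 ± 0.484 CPM in KO clone 2, 9.35 ± 1.01 CPM in KO clone 1 and 7.92 ± 0.786 CPM in WT (SD, n = 3), but its near-identical copy SMN1 makes its counts uncertain. Both SMN2 calls were lost without WT replicate 1 (adjusted p = 0.134 in KO clone 2 and 0.265 in KO clone 1), the KO clone 2 call also without KO clone 2 replicate 3 (adjusted p = 0.0726), and the KO clone 1 call in 7 of the 9 fits that left out 1 library (adjusted p = 0.0519 to 0.274), with DESeq2 (adjusted p = 0.0719) and with no filter on low counts (adjusted p = 0.0853).

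JMJD6 (ENSG00000070495; chromosome 17, 76712832 to 76726799, minus strand) had 27.95, 29.9 and 31.2 CPM in KO clone 2, 29.8, 30.3 and 30.7 CPM in KO clone 1, and 28.5, 28.9 and 31.7 CPM in WT. The 3 groups overlapped. Its log2 fold change was 0.00 in KO clone 2 (95% interval -0.11 to 0.11, adjusted p = 0.983) and 0.03 in KO clone 1 (95% interval -0.08 to 0.15, adjusted p = 0.731). Among 6 substrates and partners of JMJD6, 1 was higher in KO clone 2 (background 14.4%), and 1 was higher (17.4%) and 1 lower (18.8%) in KO clone 1. The lower one was U2AF2, a splicing factor that JMJD6 hydroxylates, at -0.19 in KO clone 1 (adjusted p = 0.000194) and 0.05 in KO clone 2 (adjusted p = 0.359).

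NDUFAF7 (ENSG00000003509; chromosome 2, 37231631 to 37253403, plus strand) had 21.7, 23.9 and 21.2 CPM in KO clone 2, 21.4, 21.3 and 23.3 CPM in KO clone 1, and 22.1, 21.9 and 20.1 CPM in WT. The 3 groups overlapped here as well. Its log2 fold change was 0.06 in KO clone 2 (95% interval -0.07 to 0.19, adjusted p = 0.576) and 0.04 in KO clone 1 (95% interval -0.09 to 0.17, adjusted p = 0.692).

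**Figure D4:**
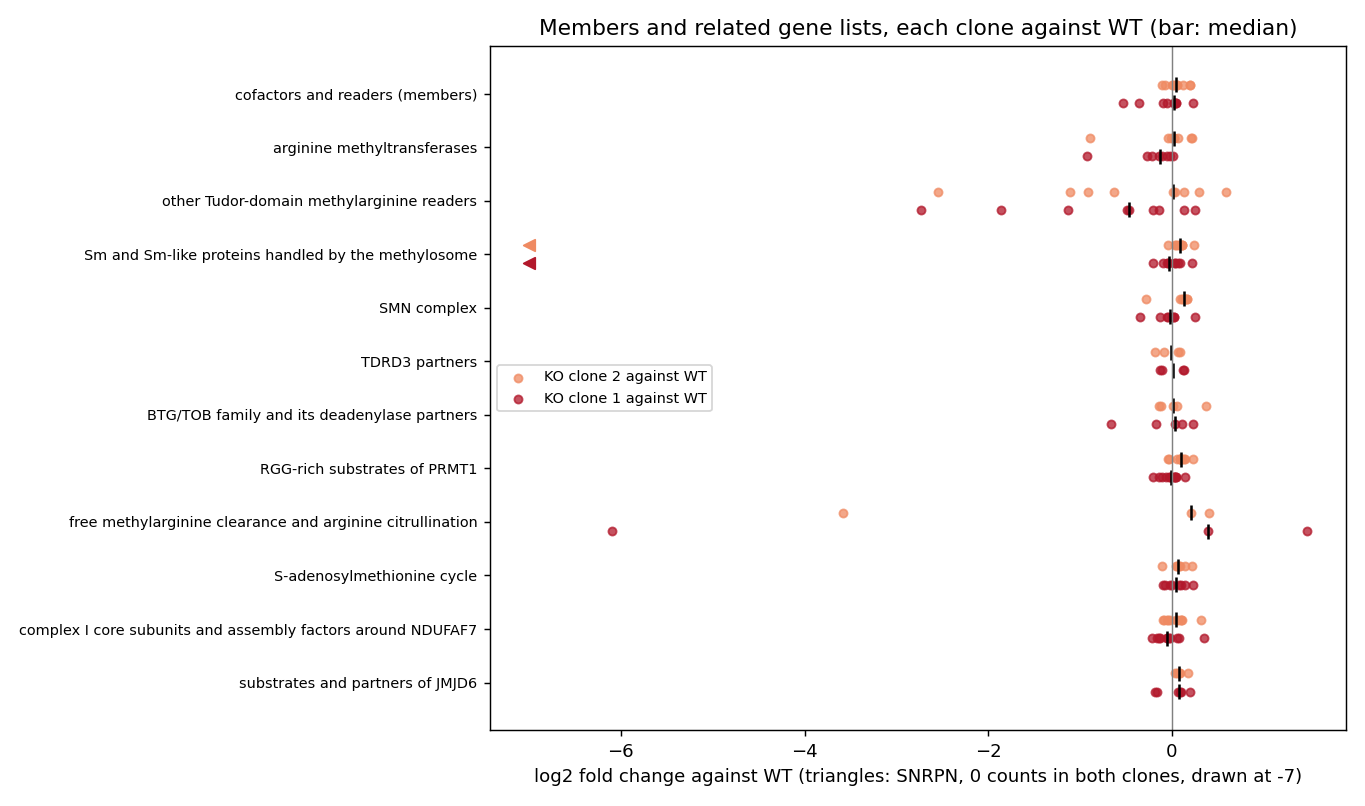
log2 fold change against WT (horizontal axis) of the 10 cofactors and readers (top row) and of the genes of 11 related lists, each point 1 gene, with KO clone 2 above KO clone 1 in each row and a bar at the median. Triangles at the left edge stand for SNRPN, which had 0 counts in both clones. The 10 genes lie between -0.11 and 0.20 in KO clone 2 and between -0.53 and 0.23 in KO clone 1, while the other points lower by more than the fold minimum are TDRKH, RNF17, TDRD9 and DDAH1.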

How the data were processed

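RNA-seq libraries of KG-1a cells were grouped by the titles in the labels. Per the series text, the authors aligned reads with STAR in 2-pass mode to GRCh38 and deposited raw per-gene counts of read pairs. Versions and gene annotation are not given in the sources used here. The authors also deposited a DESeq2 table of both clones together against WT, with log2 fold changes, a test statistic (a score) and adjusted p-values. In all 45107 genes with a statistic, the log2 fold change divided by its SE equalled the statistic within 0.001, so the deposited values are not shrunken ones. The 9 columns of normalised values per sample in that table were not used.

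Counts for the strand that held 92.03% to 92.31% of stranded counts were used. Counted pairs were 25.93% to 29.59% of all pairs per library, and a floor of 3 counts came to 0.0695 to 0.107 CPM, which covers counting error only. The R version was 4.3.3. A filterByExpr filter by group and TMM scaling were applied in edgeR 4.0.16, followed by a robust quasi-likelihood fit with 1 coefficient per group over 9 libraries. Each clone and the mean of the clones were contrasted with WT, and KO clone 2 with KO clone 1. A gene passed at a Benjamini-Hochberg adjusted p under 0.05 over all genes tested, and the fold minimum was an absolute log2 fold change of 1. SE was derived from the log2 fold change and its F statistic. Where no tool is named, adjusted p-values come from edgeR. CPM uses TMM-scaled totals. Lengths are merged exons of GENCODE 44, and the docking motif was searched in its canonical coding sequences on the GRCh38 sequence. Scripts were tested on data drawn with known changes.

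The 10 genes and the 11 related lists (96 genes, all found) were chosen with earlier results of these data known. Named were the 10 genes, PRMT2 and, per list, up to 4 genes passing in both clones in the same direction and up to 2 passing between the clones, by smallest adjusted p. Other genes (PRMT5, SMN1, marker genes, and copies or overlapping genes) were named as partners, copies or checks, and not every gene the rule named is described. A result among the complex I genes is not reported here. Alternatives were DESeq2 1.42.0, limma voom 3.58.1, upper-quartile scaling, counts without regard to strand, other filters, both clones as 1 group, a replicate block and each library left out. Those for genes of the related lists were added after the data had been seen.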

Additional observations from a re-analysis of the deposited data

Results flagged for a closer look

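In 6 of the 10 genes the level differed between KO clone 2 and KO clone 1, by the edgeR quasi-likelihood F test of KO clone 2 against KO clone 1 with Benjamini-Hochberg adjustment over all 20655 genes tested, of which 25.9% passed. WDR77 was 0.25 higher on the log2 scale in KO clone 2 (adjusted p = 0.00043), RIOK1 0.15 higher (adjusted p = 0.00463), COPRS 0.36 higher (adjusted p = 0.00684), BTG1 0.45 higher (adjusted p = 4.48e-12) and SND1 0.11 higher (adjusted p = 0.00971). TDRD3 alone of these 6 was lower in KO clone 2, at -0.15 (adjusted p = 0.0173). The test compares 1 clone with 1 clone and does not cover the spread between clones of 1 genotype. Among genes of the same abundance, 38.4% passed. For RIOK1 and TDRD3 neither clone passed against WT. KO clone 1 includes the library with 13.33% of pairs mapping to several places. Without it, 6 of the 10 genes still passed between the clones, with COPRS at 0.32 (adjusted p = 0.0423). The count was 5 without KO clone 1 replicate 2, 5 without KO clone 1 replicate 3, and 4 without KO clone 2 replicate 3. In that last fit 4344 of all genes passed between the clones, against 5355 with all libraries.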

How the results depend on the processing

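CLNS1A in both clones, BTG1 in KO clone 1, and WDR77 and SND1 in KO clone 2 kept their direction and passed under all alternatives run for each clone. Both of the next settings moved a count of calls by over 1.5 times. With at least 1 CPM in 3 libraries, genes past the fold minimum numbered 768 in KO clone 2, 967 in KO clone 1, 830 for the mean of both and 347 between the clones, against 1232, 1565, 1349 and 582; this filter tests fewer genes. With both clones as 1 group, 4378 genes passed against WT, compared with 7282, and 1 of the 10 genes, CLNS1A, compared with 3; BTG1 (-0.29, adjusted p = 0.214) and SND1 (0.07, adjusted p = 0.247) no longer passed. RIOK1 in KO clone 1 passed with the filter of 1 CPM (-0.10, adjusted p = 0.0444).

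Signs turned for values near 0 that never passed. COPRS in KO clone 2 was -0.0021 with the filter of 1 CPM and 0 without regard to strand, JMJD6 in KO clone 2 was -0.0062 and -0.0018 under the same settings, and SMNDC1 in KO clone 2 against KO clone 1 was -0.0047 with upper-quartile scaling; the cause was not tested. Over the fits that left out 1 library, the lowest and highest values were, in KO clone 2 against WT, -0.088 and 0.074 for COPRS, -0.0361 and 0.0489 for JMJD6, and -0.0167 and 0.0567 for SMNDC1. In KO clone 1 against WT they were -0.0042 and 0.0661 for NDUFAF7 and -0.0121 and 0.0452 for SMNDC1. For the mean of both they were -0.013 and 0.0633 for JMJD6, -0.0084 and 0.0487 for SMNDC1, and -0.056 and 0.0009 for TDRD3. Between the clones they were -0.0672 and 0.0116 for JMJD6, -0.0364 and 0.0609 for NDUFAF7, and -0.042 and 0.0313 for SMNDC1. COPRS in the mean of both passed without KO clone 1 replicate 2 (-0.25, adjusted p = 0.0189) and without WT replicate 2 (-0.27, adjusted p = 0.0298).

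Replicate numbers were treated as shared numbers only: deviations of same-numbered libraries correlated at -0.028 to 0.0392. With a replicate block, 3, 3, 3 and 6 of the 10 genes passed in KO clone 2, KO clone 1, the mean and between the clones, as without it, and no call of the 10 changed.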

Other observations

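Free methylarginines, released when methylated proteins are degraded, are cleared mainly by the DDAH enzymes, and one of these genes was nearly lost in both knockouts. DDAH1 had 2.69, 2.51 and 2.46 CPM in KO clone 2, 0.329, 0.590 and 0.399 CPM in KO clone 1, and 31.3, 29.6 and 30.8 CPM in WT. It was 11.98-fold lower than WT in KO clone 2 (log2 fold change -3.58, adjusted p = 6.58e-30) and 68.7-fold lower in KO clone 1 (-6.09, adjusted p = 7.00e-33), and the clones differed by 2.51 (adjusted p = 2.58e-14). DDAH2 went the other way, at 29.8 ± 1.42 CPM in KO clone 2, 34.1 ± 2.16 CPM in KO clone 1 and 25.9 ± 1.395 CPM in WT (SD, n = 3). Its log2 fold changes were 0.20 in KO clone 2 (adjusted p = 0.00506) and 0.40 in KO clone 1 (adjusted p = 3.99e-07), and the KO clone 2 call was lost without KO clone 2 replicate 2 (0.17, adjusted p = 0.0515). Of this list of 7 genes, 3 had counts high enough to test, and 1 was higher and 1 lower in each clone, where 30.5% of all genes passed in KO clone 2 and 36.2% in KO clone 1.

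Of 8 arginine methyltransferases tested, PRMT2 included, 2 were higher and 1 was lower in KO clone 2. In KO clone 1, 3 were lower. These counts are about the 30.5% and 36.2% of all genes that passed, but they include PRMT2, the gene knocked out. PRMT2 was the lower gene in KO clone 2 and among the 3 lower genes in KO clone 1. PRMT8 had counts too low to test. Of 8 genes of the S-adenosylmethionine cycle, which supplies the methyl donor, 2 were higher in KO clone 2 (background 14.4%), and 3 were higher (17.4%) and 1 lower (18.8%) in KO clone 1. The KO clone 1 calls of MTR (0.07, adjusted p = 0.0832) and MTRR (-0.10, adjusted p = 0.0688) were lost with DESeq2 and under other alternatives. AHCYL1, a relative of the hydrolase that removes S-adenosylhomocysteine, was higher in both, at 0.22 in KO clone 2 (adjusted p = 1.24e-07) and 0.14 in KO clone 1 (adjusted p = 0.00022).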
